A study of Mus musculus with 12 samples.

Results

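The genes described here encode the complement, coagulation and fibrinolysis systems, measured in mouse kidney. They were chosen by symbol from a list of 45 names, of which 44 matched a row of the deposited table of 43346 genes. The remaining name, C1s, is an older symbol of C1s1, which is itself on the list. They form 4 groups of 14 complement components and receptors, 5 regulators of complement, 20 genes of coagulation and 5 genes of plasminogen activation.

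The kidney libraries were 6 of HP-AKI, labelled 7, 8, 9, 11, 12 and 13, and 6 of sham, labelled 1 to 6, all at day 1. AKI is acute kidney injury. The labels leave HP unexplained, and in this field HP-AKI is heme protein-induced AKI, an injury by heme proteins such as myoglobin. The strain, sex and age of the mice, the agent that caused the injury and the sham procedure are not given in the sources used here, nor is it said that each library came from its own animal. The p-values therefore measure library-to-library spread only, and this spread may be technical.

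Complement is a cascade of plasma proteases that is started by antibody (the classical pathway), by sugars (the lectin pathway) or by slow spontaneous activation (the alternative pathway). All of these routes cut C3 and can end in a pore in the target membrane, and host cells carry regulators that stop the cascade on their own surface. In coagulation, tissue factor exposed to blood starts a protease chain that ends in thrombin, which turns fibrinogen into fibrin. Plasmin, made from plasminogen by tissue plasminogen activator or urokinase, dissolves fibrin again. The liver makes most of the plasma proteins of these systems, while tubular epithelium is a known source of urokinase and of some complement components.

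The HP-AKI libraries held 31624522 to 40630917 counts and the sham libraries 35201197 to 41951129. Levels are given as CPM (counts relative to library size, scaled with TMM factors), and a gene was called when its adjusted p in an edgeR quasi-likelihood test over all genes was under 0.05. The first principal component (81.3% of the variance) separated HP-AKI from sham. The second (7.85%) put HP-AKI 8, sham 1 and sham 2 at one end, so results that depend on these libraries are marked. HP-AKI 8 gave the highest HP-AKI value in 20 of the 42 members tested, and sham 2 the highest sham value in 12. In whole kidney RNA, fewer cells of a type and less RNA per cell cannot be told apart. The summed proximal tubule markers, 8 genes that were all lower, were at 2290 to 3979 CPM (2289.7 at the lowest) in HP-AKI and at 10803 to 13854 CPM in sham.

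Of 42 members with enough counts to test, 34 were called, 19 higher and 15 lower in HP-AKI. Among all 17470 genes tested, 72.8% were called, 37.7% higher and 35.2% lower, so the share of members called is near that of the whole table. By size, 17 members rose by 2-fold or more and 11 fell by as much (28 in all), where 16.1% and 17.1% of all genes did (33.1% in all). The HP-AKI and sham values did not overlap in 29 of the 42 members tested, against 52.4% of all genes. The median log2 fold change was 0.11 over the 42 members and 0.04 over all genes, while the median of its absolute size was 1.44 over the members and 0.67 over all genes. The groups differed in their medians, which were 1.78 for plasminogen activation, 1.56 for coagulation, -0.11 for complement control and -0.23 for complement. F7 and F11, which encode factors VII and XI of the clotting chain, were too rare to test, with 31 and 17 counts over the 6 HP-AKI libraries, against 25 and 6 over the 6 sham libraries.

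**Figure D1:**
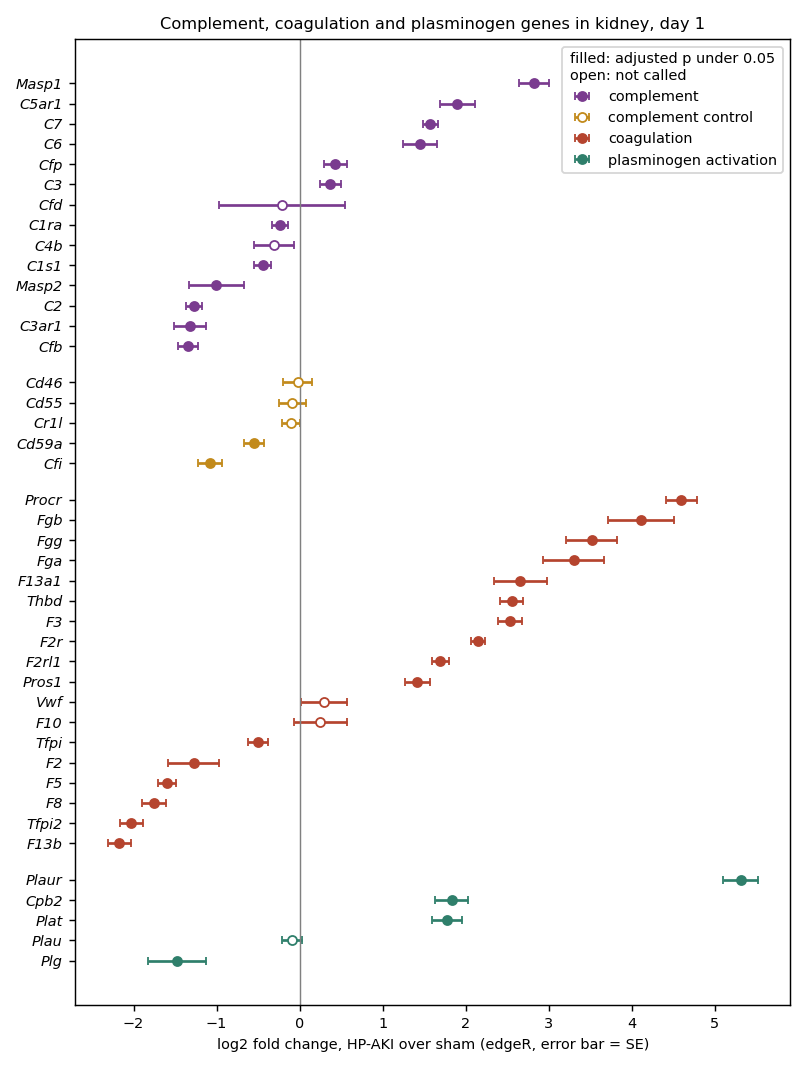
Log2 fold change of HP-AKI over sham with its SE (x axis) for the 42 tested genes (y axis), ordered by size within 4 groups. Filled points passed an adjusted p of 0.05 and open points did not. Coagulation spreads from -2.17 (F13b) to 4.60 (Procr), Plaur has the largest rise at 5.31, and 3 of 5 complement regulators lie near 0.

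Expressed per kilobase of gene length, which allows levels of different genes to be compared, Plau stood first in both groups, at 269 ± 46.5 CPM per kilobase in HP-AKI and 287 ± 43.9 in sham (SD, n = 6 each). Plau encodes urokinase, a secreted protease that activates plasminogen. Below Plau, the order of levels differed. In HP-AKI the next were Plat (107 ± 32.4 CPM per kilobase), F2r (99.6 ± 10.97), Fga (97.8 ± 70.3), F3 (67.9 ± 15.5), Plaur (65.5 ± 13.1) and Fgg (64.8 ± 36.9). Neighbours in this row do not differ beyond their SDs. In sham the next were Cfb (152.2 ± 21.5 CPM per kilobase), F13b (111 ± 21.9), Cd59a (45.9 ± 7.44) and Plat (31.1 ± 5.25), each step being larger than either SD beside it. Cfb stood at rank 8 and F13b at rank 13 in HP-AKI, while Plaur, at rank 6 in HP-AKI, held rank 27 in sham. Among the lowest in both groups were Plg, F2, F7, F10 and F11, plasma proteases that the liver makes, at 0.0358 to 0.186 CPM per kilobase in HP-AKI and 0.0125 to 0.215 in sham.

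**Figure D2:**
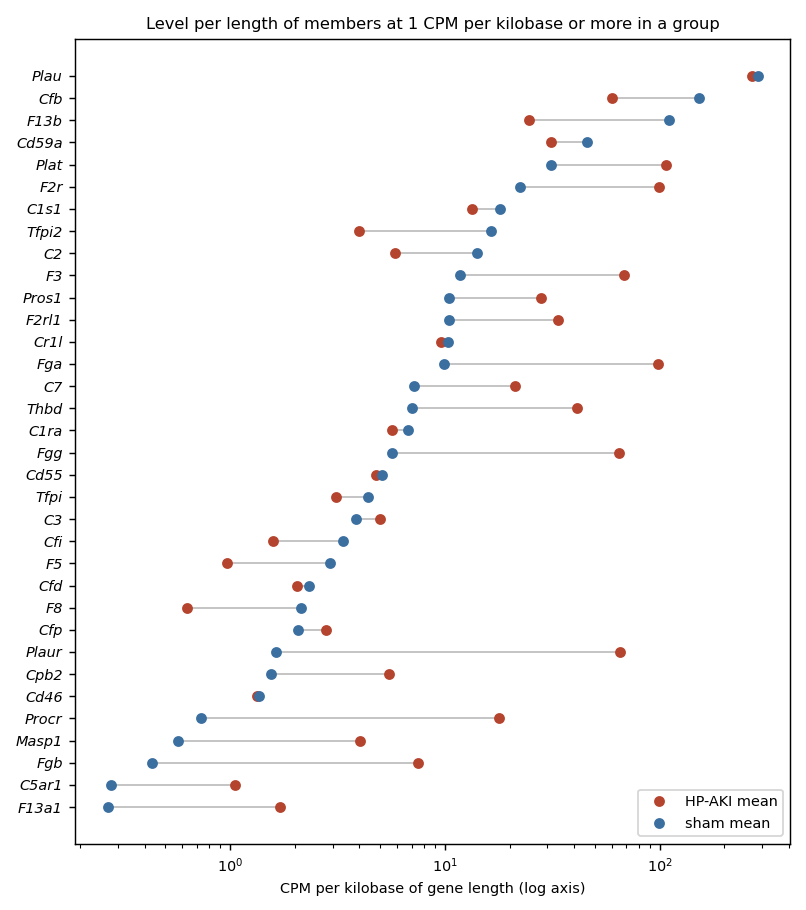
Mean level per kilobase of gene length (x axis, log scale) in HP-AKI and sham for members (y axis) that reached 1 CPM per kilobase in either group, ordered by the sham level. Plau leads in both groups, Cfb and F13b are further left in HP-AKI, and Plaur, Procr, Fgb, Fgg and Fga are further right in HP-AKI by the longest distances.

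Of 5 genes of plasminogen activation, 3 rose, 1 fell and Plau was not called. Plaur encodes the urokinase receptor, a lipid-anchored protein that holds urokinase at the cell surface, and had the largest rise of all members. Plaur had 73.3 to 123 CPM (median 91.8) in the 6 HP-AKI libraries, against 1.39 to 3.47 CPM (median 2.29) in the 6 sham libraries. The lowest HP-AKI value lay far above the highest sham value. The log2 fold change was 5.31 ± 0.21 (SE), a mean ratio of 39.99, with an adjusted p of 1.15e-11. A rise of at least 8-fold was found in 2.78% of all genes.

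Its ligand did not pass the test. Plau had 497 to 821 CPM (median 614) in HP-AKI, against 529 to 805 CPM (median 699.6) in sham, and the ranges overlapped almost fully (-0.09 ± 0.12 on the log2 scale, adjusted p 0.522). Without HP-AKI 8, sham 1 and sham 2 it was called lower by a small step (-0.28, adjusted p 0.0275). Per length, Plau stood 2.40 to 6.67 times above its receptor in HP-AKI libraries, against 120.0 to 299 times in sham libraries. Plat, the tissue plasminogen activator that acts on fibrin, had 185 to 381 CPM (median 243) in HP-AKI, against 56.7 to 94.1 CPM (median 80.3) in sham. All HP-AKI values were above the sham values (1.78 ± 0.18, adjusted p 3.78e-07). The ratio of Plau to Plat per length was 1.49 to 3.72 in HP-AKI and 6.77 to 13.9 in sham.

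Cpb2 encodes a carboxypeptidase (TAFI) that trims fibrin so that less plasminogen binds to it. Cpb2 had 5.65 to 11.3 CPM (median 7.60) in HP-AKI, against 1.68 to 2.91 CPM (median 2.098) in sham, with no overlap (1.83 ± 0.20, adjusted p 8.25e-07). Plg, plasminogen itself, was at the edge of detection and fell, with 47 counts over the HP-AKI libraries and 129 over the sham libraries (-1.48 ± 0.35, adjusted p 0.00131). Exons of Plg overlap those of Slc22a3 on the opposite strand in GENCODE, and since the kit named in the labels does not mark the strand, reads of the pair cannot be told apart.

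Among 10 further genes of this system outside the list, 9 could be tested, of which 5 rose and 3 fell. Anxa2, a membrane-bound docking protein for plasminogen, rose to 444 ± 24.5 CPM in HP-AKI, against 80.1 ± 12.3 CPM in sham (SD, n = 6 each), by 2.47 ± 0.10 on the log2 scale (adjusted p 1.60e-11). Hrg, a plasma glycoprotein that binds plasminogen, and Serpinf2, the plasmin inhibitor, fell by 2.02 and 1.90 on the log2 scale.

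Of 20 coagulation genes, 18 could be tested, and 10 rose, 6 fell and 2 did not pass. F3 encodes tissue factor, the membrane protein that starts clotting when it binds factor VII. F3 had 105 to 182 CPM (median 116) in HP-AKI, with HP-AKI 8 at the top, against 18.4 to 25.9 CPM (median 21.4) in sham. The groups were far apart (2.53 ± 0.14, adjusted p 3.63e-10). Tfpi, which encodes the inhibitor of the tissue factor and factor VII complex, was slightly lower, at 13.7 to 20.3 CPM (median 17.0) in HP-AKI, against 21.5 to 31.7 CPM (median 22.7) in sham (-0.50 ± 0.12, adjusted p 0.00154). Per length, F3 stood 16.5 to 26.2 times above Tfpi in HP-AKI libraries and 2.24 to 3.50 times above it in sham libraries. Tfpi2, a related Kunitz-type inhibitor of plasmin and other proteases, fell further, with 5.56 to 9.26 CPM (median 6.10) in HP-AKI, against 22.9 to 33.3 CPM (median 25.3) in sham (-2.03 ± 0.14, adjusted p 5.03e-09).

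Both protease-activated receptors on the list rose. F2r encodes PAR1, the main thrombin receptor of cells other than mouse platelets. F2r had 268 to 372 CPM (median 339) in HP-AKI, against 69.4 to 80.1 CPM (median 73.9) in sham (2.15 ± 0.08, adjusted p 1.24e-11). F2rl1 encodes PAR2, which trypsin-like proteases and the tissue factor complex cut. F2rl1 had 77.1 to 117 CPM (median 90.7) in HP-AKI, against 25.2 to 33.4 CPM (median 28.1) in sham (1.69 ± 0.10, adjusted p 8.90e-10). Neither gene had overlapping values between the groups. These genes lie near each other on mouse chromosome 13 (F2r, ENSMUSG00000048376, 95601804 to 95618459, and F2rl1, ENSMUSG00000021678, 95511732 to 95525240, GRCm38).

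The protein C system restrains clotting, since thrombin bound to thrombomodulin activates protein C, with help from the protein C receptor, and protein S is its cofactor. Thbd, thrombomodulin, had 107 to 208 CPM (median 158) in HP-AKI, against 23.5 to 29.8 CPM (median 25.9) in sham (2.55 ± 0.14, adjusted p 4.61e-10). Procr, the endothelial protein C receptor, had 21.03 to 45.7 CPM (median 38.7) in HP-AKI, against 1.35 to 1.68 CPM (median 1.45) in sham. Its rise of 4.60 ± 0.19 on the log2 scale, a mean ratio of 24.3, was the second largest among the members (adjusted p 1.86e-11). HP-AKI 12 and HP-AKI 8 had the lowest HP-AKI values, 21.03 and 29.3 CPM, still far above sham. Pros1, protein S, had 74.3 to 154 CPM (median 116) in HP-AKI, against 38.0 to 52.9 CPM (median 39.5) in sham (1.42 ± 0.15, adjusted p 4.81e-07). Proc, protein C itself and not on the member list, went the other way. Proc had 17.0 to 41.4 CPM (median 28.1) in HP-AKI, against 47.1 to 80.4 CPM (median 71.1) in sham (-1.13 ± 0.19, adjusted p 8.78e-05).

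Thrombomodulin thus rose by nearly the same factor as tissue factor. The ratio of Thbd to F3 per length was 0.435 to 0.814 in HP-AKI and 0.4997 to 0.729 in sham, so the ranges overlapped. Thbd and Procr are expressed by endothelial cells, and 6 of 8 endothelial markers rose and 1 fell. Their summed level was 699.5 to 1035 CPM in HP-AKI and 608 to 672 CPM in sham. The part of these markers in the result was not tested. Vwf, the platelet-binding protein of endothelium, did not pass, with 1.78 to 5.47 CPM in HP-AKI and 1.82 to 4.72 CPM in sham (0.29 ± 0.28, adjusted p 0.350).

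**Figure D3:**
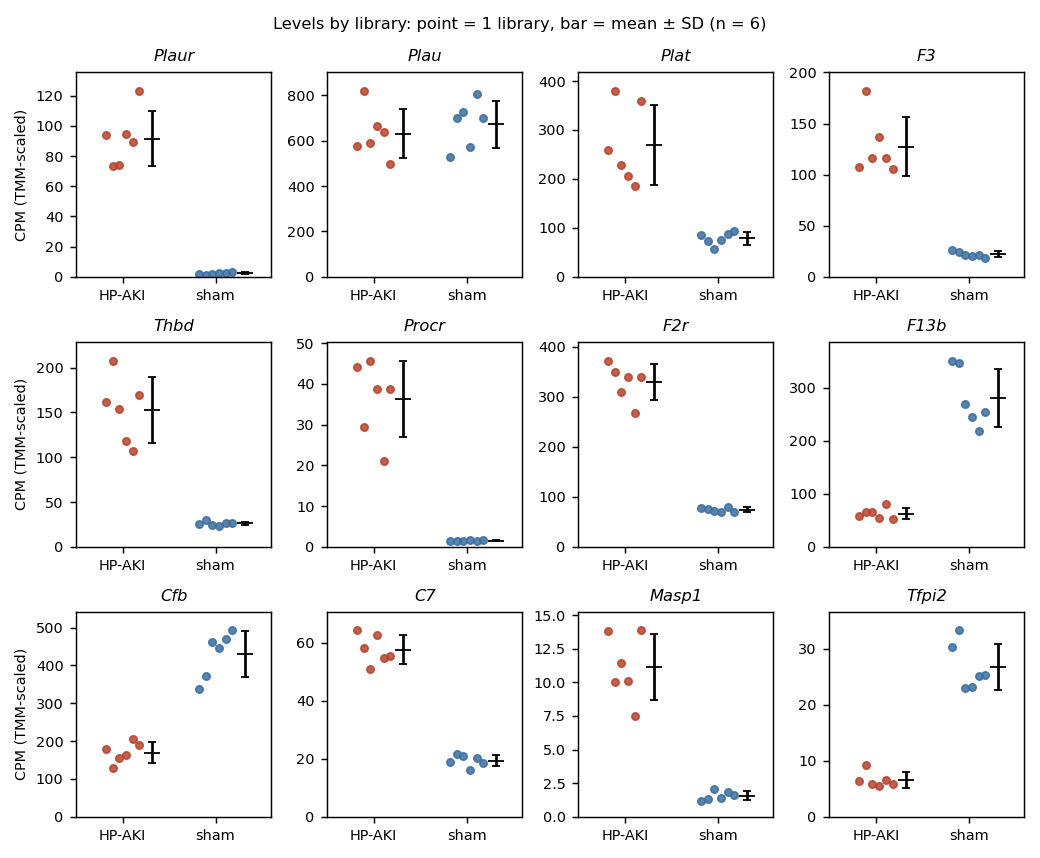
TMM-scaled CPM (y axis, from 0) of 12 members in the 6 HP-AKI and 6 sham libraries, with the mean and SD beside the points. Plau overlaps between the groups. Plaur, Plat, F3, Thbd, Procr, F2r, C7 and Masp1 lie higher in all HP-AKI libraries, and F13b, Cfb and Tfpi2 lower.

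Promoter sequences were set beside these rises, because several members moved together. They came from RefSeq for GRCm38.p6 and covered the 250 bases before the transcript start for 33 of the 44 genes (38 promoters). They were searched on both strands for 6 motifs: CTGGGAA (IL-6 response element), TTCNNNGAA (STAT), TGAGTCA (AP-1), GGGNNTTCC (NF-kappaB), TTNNGNAAT (C/EBP) and GTTAAT (half-site of HNF1). No promoter was at hand for Thbd, Plat, F2rl1, Masp1, Plau, Plg, Vwf, Cfb, C2, C4b and Cfi, so these genes were not searched. The AP-1 motif was present in 6 genes, of which 5 (Procr, F3, Plaur, F2r and Fgb) were called higher and 1 (C3ar1) lower. That was 5 of 15 higher genes, 1 of 11 lower genes and 0 of 7 others with a promoter. Counted by promoter, 6 of the 38 member promoters held it, against 4.46% of all 32851 promoters. The other motifs were split in other ways. CTGGGAA was in 3 of the 15 higher and 4 of the 11 lower genes, the STAT motif in 4 and 1, the NF-kappaB motif in 1 and 0, the C/EBP motif in 3 and 3, and the HNF1 half-site in 4 and 3. Of the 7 others, 1 held the NF-kappaB motif and 0 any of the rest. AP-1 is shown because its split was the most uneven, a choice made after the counts were seen. The matches with up to 30 bases on each side are shown for the 4 genes described so far and for C3ar1, with the motif in capitals, and the Fgb match is in the longer sequence further on. They lie at chr7:24462384-24462450 (Plaur, + strand), chr2:155751033-155751099 (Procr, +), chr3:121723372-121723438 (F3, +), chr13:95618634-95618700 (F2r, -) and chr6:122856162-122856209 (C3ar1, -).
Plaur: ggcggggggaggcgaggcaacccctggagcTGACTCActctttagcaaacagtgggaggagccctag
Procr: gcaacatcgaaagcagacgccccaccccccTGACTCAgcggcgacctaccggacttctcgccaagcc
F3: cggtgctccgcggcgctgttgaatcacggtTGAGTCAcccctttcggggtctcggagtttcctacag
F2r: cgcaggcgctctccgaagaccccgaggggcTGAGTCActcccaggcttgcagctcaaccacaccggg
C3ar1: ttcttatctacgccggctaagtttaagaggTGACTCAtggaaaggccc
The first base of the motif is 69 bases before the start in Plaur, 154 in Procr, 135 in F3, 204 in F2r and 22 in C3ar1. A match describes letters only and does not show that a factor binds there.

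The 3 fibrinogen chains, which the liver makes in bulk and which assemble into one protein, rose by the largest amounts after Plaur and Procr. Fga (alpha chain) had 123 to 659 CPM (median 197) in HP-AKI, against 26.6 to 32.8 CPM (median 29.7) in sham. Fgb (beta chain) had 9.38 to 51.4 CPM (median 24.5) in HP-AKI, against 0.952 to 2.28 CPM (median 1.70) in sham. Fgg (gamma chain) had 76.6 to 237 CPM (median 94.3) in HP-AKI, against 10.01 to 13.8 CPM (median 11.6) in sham. No value overlapped between the groups in any chain. The log2 fold changes were 3.30 ± 0.37 for Fga, 4.11 ± 0.40 for Fgb and 3.52 ± 0.31 for Fgg, with adjusted p of 9.80e-07, 2.24e-07 and 6.64e-08.

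The chains also varied together among HP-AKI libraries, which differed more than for any other tested member except Cfd. HP-AKI 12 had 659, 51.4 and 232 CPM of Fga, Fgb and Fgg, and HP-AKI 9 had 439, 45.6 and 237 CPM. HP-AKI 8 had 123, 9.38 and 80.0 CPM. Thus the same pair of libraries was highest for all 3 chains. The SD of log2(CPM + 0.5) within HP-AKI was 0.95, 0.92 and 0.77 for Fga, Fgb and Fgg, against a median of 0.25 over the members, while within sham it was 0.12, 0.35 and 0.15. Leaving out HP-AKI 12 gave 2.88 for Fga, 3.84 for Fgb and 3.28 for Fgg, all still called. Per length, Fga stood 9.46 to 16.6 times above Fgb in HP-AKI libraries and 17.4 to 43.2 times above it in sham libraries. The ratio of Fga to Fgg was 1.07 to 1.98 in HP-AKI and 1.46 to 2.26 in sham. Fgb was thus far below both other chains in both groups, while Fga and Fgg were closer to each other.

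**Figure D4:**
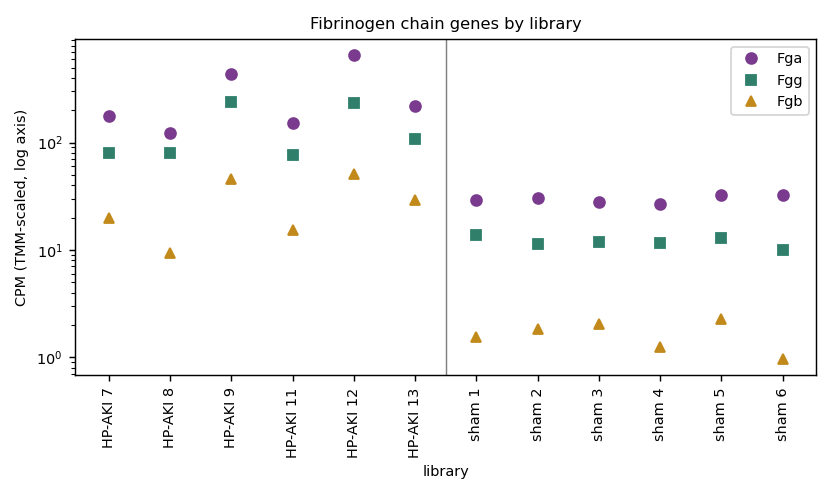
TMM-scaled CPM (y axis, log scale) of Fga, Fgg and Fgb in each HP-AKI and sham library (x axis). In HP-AKI all 3 chains are highest in libraries 9 and 12 and lie above every sham value, while Fgb is the lowest chain throughout.

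No hepatocyte marker was called higher beside them. Of 8 tested markers of hepatocytes 0 were called higher and 4 lower, at a sum of 624 to 1244 CPM in HP-AKI and 1827 to 2153 CPM in sham, much of which is Cyp2e1 and Apob, which the kidney also expresses. Alb, albumin, was at 24.5 CPM in HP-AKI and 19.9 CPM in sham and did not pass. The hepatocyte genes Ahsg, Cps1 and F9 stayed under 1 CPM on average in both groups.

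The fibrinogen genes form one cluster on mouse chromosome 3 (Fgg, ENSMUSG00000033860, 83007724 to 83015049, Fga, ENSMUSG00000028001, 83026076 to 83033627, and Fgb, ENSMUSG00000033831, 83040141 to 83049863, GRCm38). Their upstream sequences are shown since the chains rose together, with every match to the 6 motifs within the stretch shown in capitals. They cover chr3:83025903-83026075 (Fga, + strand, ending at the gene start in the deposited table), chr3:83049864-83050113 (Fgb, -) and chr3:83007474-83007723 (Fgg, +).
Fga: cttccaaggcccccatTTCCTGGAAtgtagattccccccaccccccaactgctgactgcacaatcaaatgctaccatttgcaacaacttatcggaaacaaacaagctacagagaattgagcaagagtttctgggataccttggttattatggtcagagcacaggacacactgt
Fgb: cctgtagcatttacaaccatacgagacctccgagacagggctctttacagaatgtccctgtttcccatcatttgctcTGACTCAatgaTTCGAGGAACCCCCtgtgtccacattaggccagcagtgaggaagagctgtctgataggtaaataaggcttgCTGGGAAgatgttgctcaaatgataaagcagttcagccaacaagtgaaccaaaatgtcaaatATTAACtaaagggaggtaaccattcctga
Fgg: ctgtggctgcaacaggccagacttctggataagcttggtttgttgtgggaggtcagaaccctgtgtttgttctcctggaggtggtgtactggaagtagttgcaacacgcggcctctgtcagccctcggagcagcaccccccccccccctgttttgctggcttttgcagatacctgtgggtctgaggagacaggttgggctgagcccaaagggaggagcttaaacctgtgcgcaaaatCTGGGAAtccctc
Fgb and Fgg hold the CTGGGAA motif, which 9.10% of all promoters hold, and Fga and Fgb the STAT motif, which 7.02% hold. CTGGGAA was no more frequent among higher members (3 of 15) than among lower ones (4 of 11). In Fgb the STAT match overlaps the NF-kappaB match, and the AP-1 motif is also present. The HNF1 half-site is in Fgb and in Fga, where it starts 43 bases before the transcript start and so lies past the end of the Fga stretch shown. Among all 38 member promoters, 7 held CTGGGAA and 5 the STAT motif.

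The subunits of factor XIII, which crosslinks fibrin, went opposite ways. F13a1, the catalytic subunit that macrophages and platelets make, had 3.58 to 11.6 CPM (median 5.71) in HP-AKI, against 0.513 to 1.46 CPM (median 1.01) in sham (2.66 ± 0.32, adjusted p 2.55e-06). F13b, the carrier subunit, had 52.5 to 81.2 CPM (median 61.1) in HP-AKI, against 218 to 352 CPM (median 262) in sham. Its fall of 2.17 ± 0.14 on the log2 scale was the largest among the members (adjusted p 2.14e-09). F13a1 was highest in HP-AKI 8 (11.6 CPM) and HP-AKI 7 (9.90 CPM). Of 9 macrophage and monocyte markers 3 rose (Cd68, Cd14 and Ly6c2) and 5 fell, at a sum of 112 to 163 CPM in HP-AKI and 116 to 148 CPM in sham. Of 5 tested platelet markers 4 rose, at a sum over 8 markers of 9.25 to 16.7 CPM in HP-AKI and 4.91 to 8.34 CPM in sham. Most of this sum was Itga2b, with a mean of 8.45 CPM in HP-AKI and 5.14 CPM in sham. Gp1ba, Gp9 and Gp6 were near 0 in both groups, and Gp1bb, Ppbp and Clec1b averaged under 1 CPM in both. The part of either list in the result was not tested.

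Factors V and VIII, which are cofactors in the clotting chain, fell. F5, factor V, had 6.25 to 8.01 CPM (median 7.37) in HP-AKI, against 18.1 to 26.3 CPM (median 21.9) in sham (-1.59 ± 0.11, adjusted p 5.43e-09). F8, factor VIII, had 5.20 to 8.59 CPM (median 6.03) in HP-AKI, against 18.03 to 26.6 CPM (median 19.3) in sham (-1.76 ± 0.14, adjusted p 3.11e-08). Neither gene overlapped between the groups. F2, prothrombin, was rare and also lower, with 67 counts over the HP-AKI libraries and 165 over the sham libraries (-1.28 ± 0.31, adjusted p 0.00158). F10, factor X, had 109 counts over the HP-AKI libraries and 93 over the sham libraries and did not pass (0.25 ± 0.32, adjusted p 0.490).

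Of 21 further coagulation genes, 14 could be tested, and 6 rose and 7 fell. Itgb3, a subunit of the fibrinogen receptor of platelets that other cells also carry, rose by 2.94 ± 0.19 on the log2 scale, and Serpina10, an inhibitor of factor X, by 1.68 ± 0.19. The largest falls were those of Proz, a cofactor of that inhibitor (-2.71 ± 0.17), and Klkb1, plasma kallikrein (-2.22 ± 0.21).

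Of 14 complement components and receptors, 6 rose, 6 fell and 2 did not pass. The classical and alternative C3 convertases are built on the related proteases C2 and factor B, and both genes fell. Cfb had 128 to 204 CPM (median 171) in HP-AKI, against 338 to 492 CPM (median 453) in sham (-1.34 ± 0.12, adjusted p 8.74e-08). C2 had 19.3 to 27.7 CPM (median 21.5) in HP-AKI, against 50.2 to 60.3 CPM (median 54.1) in sham (-1.27 ± 0.09, adjusted p 9.29e-09). Their values may not be independent measurements. Cfb (ENSMUSG00000090231, 34856374 to 34862518) and C2 (ENSMUSG00000024371, 34862604 to 34898265) are neighbours on mouse chromosome 17. A further gene model, Gm20547 (34856412 to 34882042), shares exons with both on the same strand. It carried 0.927 to 1.03 times the Cfb counts in each of the 12 libraries and fell by 1.34 on the log2 scale. How the counting divided reads among these models is not given in the sources used here, so the split between Cfb, C2 and Gm20547 is uncertain.

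C3, the component on which all pathways meet, was slightly higher, at 20.3 to 29.9 CPM (median 27.0) in HP-AKI, against 15.7 to 24.0 CPM (median 20.6) in sham. The groups overlapped (0.37 ± 0.13, adjusted p 0.0159), and the call ended without HP-AKI 7 (0.32) or without HP-AKI 13 (0.31). Per length, Cfb stood 11.3 to 13.4 times above C3 in HP-AKI libraries and 37.4 to 43.1 times above it in sham libraries. Cfp, properdin, which stabilises the alternative convertase, had 4.87 ± 0.8003 CPM in HP-AKI and 3.61 ± 0.491 CPM in sham (SD, n = 6 each) and was called (0.43 ± 0.14, adjusted p 0.0115), but not without HP-AKI 8, sham 1 and sham 2 (0.29, adjusted p 0.0880).

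Cfd encodes factor D (adipsin), the protease that cuts factor B, which fat cells secrete. Cfd ran from 0.320 to 6.73 CPM in HP-AKI and from 0.0910 to 5.91 CPM in sham and did not pass (-0.21 ± 0.76, adjusted p 0.807). HP-AKI 13 and sham 6 had the highest values of their groups. The 5 fat cell markers did not share one order over the libraries. From lowest to highest, Plin1 ran in the order of Cfd within both groups, and Cidec did so within sham only. Adipoq, like Cfd, was highest in HP-AKI 9 and 13 and in sham 4 and 6, but its full order differed. Lep and Fabp4 did not follow the order of Cfd in either group. Among the HP-AKI libraries Plin1 was highest in HP-AKI 13 (2.55 CPM), Adipoq (2.45 CPM), Cidec (7.33 CPM) and Lep (2.26 CPM) in HP-AKI 9, and Fabp4 (378 CPM) in HP-AKI 8, which had the lowest Cfd. Among the sham libraries Plin1 (1.83 CPM), Cidec (3.34 CPM) and Fabp4 (112 CPM) were highest in sham 6, and Adipoq (3.94 CPM) and Lep (0.405 CPM) in sham 4. Of these markers Cidec, Lep and Fabp4 were called higher, while Adipoq (-1.09 on the log2 scale) and Plin1 (-0.09) did not pass. The summed level was 155 to 381 CPM in HP-AKI and 74.5 to 122 CPM in sham. Most of this sum was Fabp4, with a mean of 243 CPM in HP-AKI and 86.5 CPM in sham. The part of fat in these values was not tested.

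The proteases of the C1 complex moved little. C1s1 had 41.8 ± 5.32 CPM in HP-AKI and 56.8 ± 6.76 CPM in sham (SD, n = 6 each) with slightly overlapping ranges (-0.44 ± 0.10, adjusted p 9.65e-04). C1ra, at 15.7 ± 1.68 CPM in HP-AKI and 18.5 ± 1.95 CPM in sham, was barely called (-0.24 ± 0.10, adjusted p 0.0408) and lost the call in 7 of 20 alternatives, with library size only and without sham 1, 2, 3 or 5 or HP-AKI 9 or 13 (adjusted p 0.0503 to 0.275). C4b, which the C1 complex cuts, had 2.92 ± 0.554 CPM in HP-AKI and 3.60 ± 1.55 CPM in sham and did not pass (-0.31 ± 0.25, adjusted p 0.269). Without HP-AKI 8, sham 1 and sham 2 it was called lower (-0.55, adjusted p 0.0171), but without sham 5, which had 6.30 CPM against 1.74 to 3.74 CPM in the other sham libraries, the difference was only -0.0815 (adjusted p 0.738). C4b, C1s1 and C1ra have near-identical relatives (C4a, C1s2 and C1rb), so reads may have been divided between them.

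The lectin pathway proteases differed in direction. Masp1 had 7.52 to 13.9 CPM (median 10.8) in HP-AKI, against 1.19 to 2.04 CPM (median 1.51) in sham, with a wide gap (2.82 ± 0.18, adjusted p 2.01e-09). Masp2, which cuts C4 and C2, was rare and lower, with 107 counts over the HP-AKI libraries and 219 over the sham libraries and overlapping ranges (-1.002 ± 0.33, adjusted p 0.0128). Exons of Masp2 overlap those of Tardbp on the opposite strand in GENCODE. Exons of C1s1, C2, Cd55, Cd46, F5, Fgg and F13a1 also overlap those of opposite-strand genes there, so their values carry the same uncertainty.

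Of the terminal components, which build the membrane pore, C6 and C7 rose. C7 had 50.9 to 64.2 CPM (median 56.7) in HP-AKI, against 16.1 to 21.7 CPM (median 19.5) in sham (1.57 ± 0.09, adjusted p 5.11e-10). C6 had 1.38 to 2.08 CPM (median 1.68) in HP-AKI, against 0.478 to 0.912 CPM (median 0.518) in sham (1.45 ± 0.20, adjusted p 1.16e-05). Neither overlapped. C6 (ENSMUSG00000022181, 4727175 to 4815456) and C7 (ENSMUSG00000079105, 4988762 to 5063773) lie near each other on mouse chromosome 15. C8a, the alpha chain of the next component and not on the member list, fell to 7.48 ± 1.59 CPM in HP-AKI, against 38.8 ± 3.35 CPM in sham (-2.37 ± 0.12, adjusted p 2.40e-10). It was picked after its values were seen.

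The anaphylatoxin receptors, which draw in and activate leukocytes, moved in opposite directions. C5ar1, the C5a receptor, had 2.18 to 3.84 CPM (median 2.58) in HP-AKI, against 0.459 to 0.977 CPM (median 0.668) in sham (1.90 ± 0.21, adjusted p 8.58e-07). C3ar1, the C3a receptor, had 0.900 to 1.75 CPM (median 1.61) in HP-AKI, against 2.54 to 4.96 CPM (median 3.67) in sham (-1.32 ± 0.19, adjusted p 1.50e-05). Both genes separated the groups. All 4 neutrophil markers that could be tested rose (S100a8, S100a9, Csf3r and Cxcr2), at a sum over 8 markers of 17.6 to 143 CPM in HP-AKI and 1.83 to 3.49 CPM in sham. Mpo, Elane and Camp were near 0 in both. Ly6g was too rare to test, with 42 counts over the HP-AKI libraries and 3 over the sham libraries. HP-AKI 8 had the highest C5ar1 (3.84 CPM) and the highest S100a8 (55.5 CPM). The other HP-AKI libraries did not keep this order, since HP-AKI 9 came next for S100a8 (18.3 CPM) and had the lowest C5ar1 (2.18 CPM). The 9 macrophage and monocyte markers moved both ways. On the log2 scale Cd14 (3.55), Cd68 (3.54) and Ly6c2 (0.77) were higher, Cx3cr1 (-2.83), Adgre1 (-1.97), Ccr2 (-1.23), Csf1r (-1.01) and Lyz2 (-0.94) were lower, and Mrc1 (0.23) did not pass. The part of either cell type in the receptor values was not tested.

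Of 26 further complement genes 18 could be tested, and 3 rose and 9 fell. Itgam, a chain of complement receptor CR3 on myeloid cells, rose by 2.84 ± 0.25 on the log2 scale (adjusted p 7.30e-08). Cd93, a membrane protein of endothelium and myeloid cells, rose to 187.7 ± 60.5 CPM in HP-AKI, against 46.9 ± 7.81 CPM in sham (SD, n = 6 each). Cr2, the complement receptor of B cells (-2.92 ± 0.28), and C1rl, a relative of C1r (-2.59 ± 0.15), fell most. C1qa, C1qb and C1qc, the recognition subunits of the C1 complex, did not pass (0.17 to 0.22).

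Of 5 regulators, 2 fell and 3 did not pass, and none was called higher. Cfi, the soluble protease that inactivates C3b and C4b, had 2.68 to 3.99 CPM (median 3.24) in HP-AKI, against 5.88 to 8.93 CPM (median 6.83) in sham (-1.08 ± 0.14, adjusted p 6.08e-06). Cd59a, the lipid-anchored inhibitor of the membrane pore, was more moderately lower, with 44.2 to 72.1 CPM (median 56.2) in HP-AKI, against 72.6 to 103 CPM (median 75.6) in sham. The lowest sham value lay just above the highest HP-AKI value, that of HP-AKI 8 (-0.55 ± 0.12, adjusted p 7.01e-04).

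The regulators that act on the C3 convertases at the cell surface gave values close to sham. Cr1l encodes Crry, the main such regulator on mouse tubules, and had 86.3 to 130.3 CPM (median 91.5) in HP-AKI, against 93.6 to 127 CPM (median 102) in sham (-0.11 ± 0.11, adjusted p 0.402). Cd55, decay accelerating factor, had 19.0 to 36.6 CPM (median 20.6) in HP-AKI, against 20.6 to 32.02 CPM (median 24.1) in sham (-0.09 ± 0.16, adjusted p 0.632). Cd46, the membrane cofactor protein, which in mice is made mainly in testis, had 4.28 ± 0.787 CPM in HP-AKI and 4.36 ± 1.15 CPM in sham (-0.02 ± 0.18, adjusted p 0.906). Cd55 and Cd59a have close relatives (Cd55b and Cd59b), which could share some of their reads. The calls of Cd55 and Cr1l rest in part on 1 library. HP-AKI 8 had the highest HP-AKI value of Cd55 and Cr1l, and without it both were called lower (Cd55 -0.28, adjusted p 0.0297, and Cr1l -0.22, adjusted p 0.0327), which raised the called regulators to 4 of 5. With library size as the only scaling Cd55, Cd46 and Cr1l were at 0.04, 0.10 and 0.02.

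Among 10 further regulators 8 could be tested, and 3 rose and 3 fell. Clu, clusterin, which binds terminal complexes in fluid, rose to 1217 ± 259.8 CPM in HP-AKI, against 183 ± 47.3 CPM in sham (2.73 ± 0.19, adjusted p 4.65e-09), and C4bp, the C4b-binding protein, rose by 1.19 ± 0.27. Cd59b, a relative of Cd59a, and Cpn1, a carboxypeptidase that inactivates anaphylatoxins, fell by 1.48 and 1.45 on the log2 scale.

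**Figure D5:**
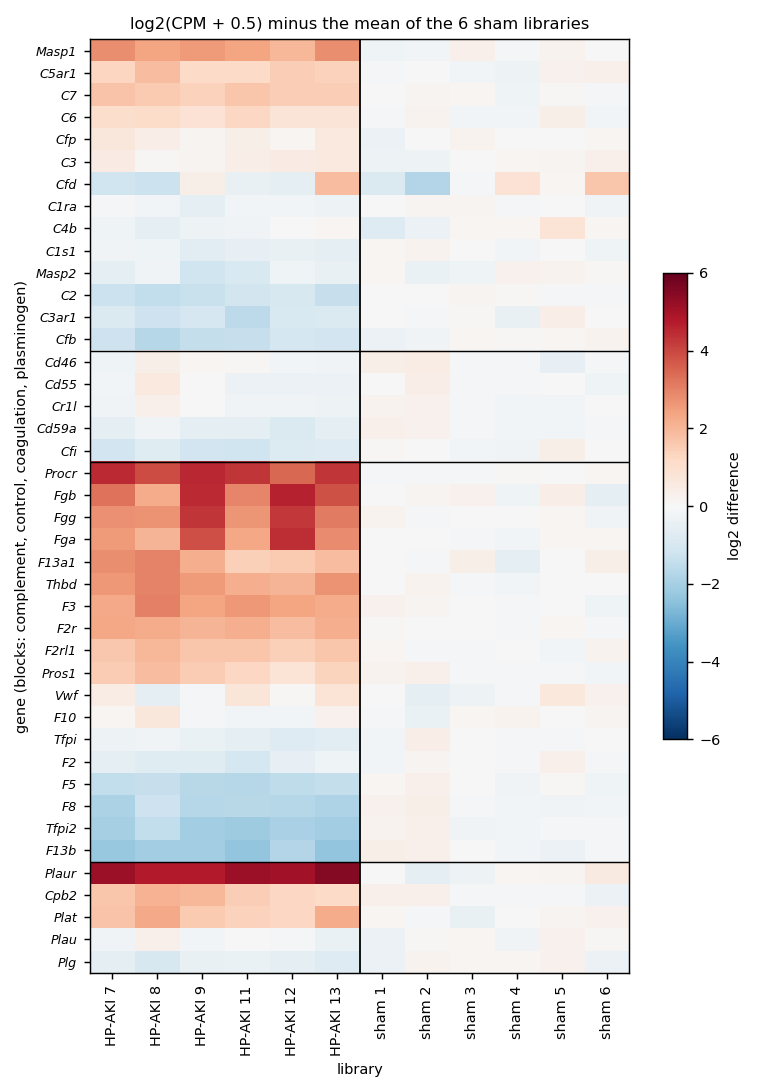
Log2(CPM + 0.5) minus the mean of the 6 sham libraries (colour) for each tested member (rows, 4 blocks) in the 6 HP-AKI libraries (left) and the 6 sham libraries (right). Plaur, Procr and the fibrinogen chains are the deepest red in HP-AKI. The fibrinogen chains are strongest in libraries 9 and 12, and Cfd varies within both groups.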

How the data were processed

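Kidney mRNA libraries were made with a TruSeq v2 kit per the labels. GRCm38, featureCounts, edgeR and TopHat2 2.1.0 are named in the submitters' processing notes, without roles or settings. The authors deposited raw whole-number counts per gene, which were tested, and RPKM values (per the file headers), which served only as a check. The per-sample total behind the RPKM scaling was 2.97 to 3.47 times the sum of the counts. All 12 libraries were used, in the groups their titles give.

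Counts were fitted with edgeR 4.0.16 (R 4.3.3) after filterByExpr and TMM scaling, with a two-sided quasi-likelihood F-test, HP-AKI over sham, and Benjamini-Hochberg adjustment over 17470 genes. SEs were derived from the fold change and its F statistic (its size over root F). The steps were tested on simulated counts. Exon overlaps came from GENCODE M21; coordinates are those of the deposited table.

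The members and lists were chosen with earlier results of these data known. Lowest, median and highest CPM are given for members called with an absolute log2 fold change of at least 1 and a mean of at least 1 CPM in the higher group, and for any member a result turns on. Of each further list the 2 largest changes in each direction are named, except 1 gene that is not reported here; other names and all ratios were chosen after their values were seen. Alternatives were RLE, upper-quartile and library-size scaling, 2 other filters, DESeq2 1.42.0, limma-voom 3.58.1, each library left out, and 3 libraries left out together.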

Additional observations from a re-analysis of the deposited data

Results flagged for a closer look

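In 8 of 84 checks (42 members in each of 2 groups of 6 libraries) the highest or lowest library stood apart from the other 5 by Dixon's test, where chance flags about 1 in 20 groups. HP-AKI 8 was the high library in 5 of them. It had 36.6 CPM of Cd55, against 23.9 CPM in the next HP-AKI library, 8.59 CPM of F8 against 6.34, 9.26 CPM of Tfpi2 against 6.53, 117 CPM of F2rl1 against 91.95, and 3.84 CPM of C5ar1 against 2.80. Sham 2 was high for Cd55 (32.02 CPM, next 24.6) and Tfpi (31.7 CPM, next 24.0). HP-AKI 13 was high for Cfd (6.73 CPM, next 2.06).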

How the results depend on the processing

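No paired analysis was possible because the HP-AKI and sham samples share no replicate numbers. Over 20 alternatives the members called numbered 31 to 36 (18 to 19 higher and 12 to 17 lower), and 32 of 42 tested members kept their direction and their call in every alternative that tested them. The called complement regulators numbered 2, but 4 without HP-AKI 8 (2 to 4 over the single libraries left out). The median log2 fold change of the members, 0.11, became 0.33 with the filter of 1 CPM in 6 libraries and -0.0127 without sham 1, sham 2 and HP-AKI 8, and ran from -0.0509 (without HP-AKI 8) to 0.33 (without sham 6) over the single libraries left out. Since members moved both ways, this median lies between them. Library size alone moved the median of all genes to 0.16, and upper-quartile factors to -0.0089. Uncalled members changed sign without being called: Cd55 (0.0352), Cd46 (0.10), Cr1l (0.0177) and Plau (0.0271) with library size only, Cd46 with limma-voom (0.0072), Cd46 (0.0920) and F10 (-0.29) without sham 1, sham 2 and HP-AKI 8, and with single libraries left out Cd46 (-0.13 to 0.0786), F10 (-0.0594 to 0.3444) and Cfd (-1.23 to 0.40). The causes were not tested. F7 and F11 were too rare to test, and F2, Plg and Masp2 rest on few counts.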
